A study of Mus musculus with 12 samples.

Results

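The comparison described here set Sap30bp knockdown against control in N2a Flp-In rtTA cells, a mouse neuroblastoma line, that carry a doxycycline-inducible FLAG-tagged Sap30bp cDNA containing exon 3. It comprised 4 of the 12 polyA RNA-seq libraries of the series, chosen by their labels: 2 biological replicates of control, treated with a non-targeting siRNA pool, and 2 of knockdown, treated with a single siRNA against Sap30bp. Both groups hold the cDNA but received no doxycycline, and cells were harvested 72 h after transfection, following a change of medium at 24 h. Cells from matching wells were combined before RNA extraction. Other libraries of the series are cited beside it: the rescue group of the same line (the siRNA plus doxycycline), and control and knockdown of a second line whose cDNA lacks exon 3 (the exon-3-lacking line). Because 1 siRNA was used and no group received the control siRNA with doxycycline, effects of Sap30bp loss cannot be told apart from other effects of that siRNA, nor in the rescue group those of the cDNA from those of doxycycline.

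SAP30BP is a nuclear protein that works with the splicing factor RBM17 (SPF45), which takes the place of the U2AF heterodimer at the 3' splice site of a class of short introns. An intron that is not removed stays in the mRNA as a retained intron, which often holds a stop codon and can keep the transcript in the nucleus or expose it to nonsense-mediated decay. An exon whose flanking splice sites are not recognised is skipped. Both outcomes are measured as a percentage of a gene's transcripts: intron retention, or exon inclusion (percent spliced in).

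Sap30bp itself was at 33.6 RPKM (a read measure scaled to gene length and library size) in control, 18.6 in knockdown and 141.3 in the rescue group, in the authors' deposited table, which holds 1 value per group. The log2 ratio of knockdown over control was -0.85, and the FDR in the authors' deposited table was 0.0684 and did not reach the 0.05 threshold. Rbm17 was at 104.8 RPKM in control and 115.3 in knockdown, with an FDR of 0.843 in the authors' deposited table. Exon 3 of Sap30bp was included in 94.0% and 95.8% of transcripts in the control libraries and in 96.3% and 96.8% in the knockdown libraries. The difference of 1.67 points (SE 3.01, adjusted p = 0.870, limma) did not pass the test. In the exon-3-lacking line the mean went from 90.4% in control to 71.1% in knockdown, without overlap, a difference of -19.3 points (adjusted p = 0.0598, limma). The changes of the lines differed by 21.0 points (SE 4.26, adjusted p = 1.00, limma). Any transcript made from the exon-3-containing cDNA without doxycycline could count towards inclusion in this line, which was not tested. The exon is 48 nt long and coding, at chr11:115938010-115938057 on the plus strand of GRCm38, and is shown because it defines the line.
Sap30bp exon 3: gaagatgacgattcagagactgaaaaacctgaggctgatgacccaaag

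Neuronal markers were at high levels, with Tubb3 at 492.9 RPKM and Stmn2 at 211.6 RPKM in control. The sympathoadrenal regulators Phox2a and Hand2 were present, whereas Th, which encodes the rate-limiting enzyme of catecholamine synthesis, was near 0 (0.38 RPKM in control and 0.20 in knockdown). Summed over 10 fibroblast markers the level was 4.54 RPKM in control and 3.50 in knockdown, and over 10 glial and immune markers it was 6.09 and 5.66 RPKM. In each of these marker lists 3 genes were at 0 in both groups. Each of the 4 libraries gave inclusion values for between 182904 and 200104 events, with no read numbers, so depth is unknown. Replicates differed by a median of 2.17 points in control and 2.69 in knockdown over the tested events. Fewer cells of a type and less RNA per cell cannot be told apart in these bulk samples, and since no label says how separately the replicates were grown, p-values measure the spread between these samples, which may be technical.

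Across 28980 splicing events in 7018 genes, 98 events in 92 genes were called between knockdown and control. Introns retained more were the largest class by number, whereas exons included less were the largest by share of those tested. Introns retained more numbered 47 of 17096 tested and introns retained less numbered 3. Exons included less numbered 34 of 6738 and exons included more numbered 7. The remaining calls were 5 of 3115 alternative 3' splice sites and 2 of 2031 alternative 5' splice sites. A call required an adjusted p under 0.05 (limma on all 12 libraries, Benjamini-Hochberg) and a difference of at least 15 points. The background is the share called: 0.338% of all events, 0.275% of introns for more retention and 0.0175% for less, 0.505% of exons for less inclusion and 0.104% for more, 0.161% of alternative 3' sites and 0.0985% of alternative 5' sites. Adjusted p-values of the 98 ranged from 0.00541 to 0.0494, close to the threshold, and 3902 events had an unadjusted p under 0.05. In each of the 98, control and knockdown libraries did not overlap, as was true of 42.2% of all tested events. No event was called when either control library of the line was left out, 120 were called without knockdown replicate 1 and 32 without knockdown replicate 2; the count was 15 if either control library of the exon-3-lacking line was dropped, 47 on dropping rescue replicate 1 of that line and 59 on dropping rescue replicate 2 of this one. No event was called with the spread taken from this line alone, so the calls rest on the spread shared by all 12 libraries.

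The 12 introns with the largest gains in retention lie in genes of varied function. Slc26a10, of a family of anion transporters, led. Its 115 nt intron (chromosome 10, 126611225 to 126611339, mm9) was retained in 3.12% and 1.37% of transcripts in control and in 65.2% and 50% in knockdown. The difference was 55.4 points (SE 7.31, adjusted p = 0.0233, limma), and the lowest knockdown library lay far above both controls. Next was Pan2, which encodes the nuclease of the PAN2-PAN3 deadenylase, with a 141 nt intron (chromosome 10, 127751098 to 127751238). It was retained at 16.5% and 12.8% in control and at 71.3% and 51.6% in knockdown, a difference of 46.8 points (SE 8.13, adjusted p = 0.0414, limma). The spread between the knockdown libraries was wide for Pan2, with an SD of 13.9, but did not reach the controls.

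Skiv2l encodes the helicase of the Ski complex, which feeds RNA to the cytoplasmic exosome. Its 348 nt intron (chromosome 17, 34983119 to 34983466) was at 24.1% and 26.4% in control and at 67.9% and 68.6% in knockdown, a difference of 43.0 points (SE 7.22, adjusted p = 0.0373, limma). A 182 nt exon of the same gene was included less, on average in 99.2% of transcripts in control and 82.6% in knockdown. Cpsf1 encodes the largest subunit of the cleavage and polyadenylation specificity factor. Its 66 nt intron, the shortest of the 47, was at 16.8% and 13.7% in control and at 64.2% and 52.9% in knockdown, a difference of 43.3 points (SE 6.24, adjusted p = 0.0260, limma). Both knockdown libraries of Cpsf1 lay above both controls by a margin larger than the spread within either group.

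Among signalling and regulatory genes, a 78 nt intron of Map4k2, a kinase upstream of JNK, was at 24.7% and 27.5% in control and at 76.7% and 63.3% in knockdown. Plxna3, a semaphorin receptor subunit, had a 134 nt intron at 12.6% and 27.5% in control and at 57.7% and 66.4% in knockdown. Ulk3, a serine/threonine kinase, had a 193 nt intron at 19.1% and 30.2% in control and at 60.9% and 65.1% in knockdown. For Plxna3 and Ulk3 the controls themselves differed, with SDs of 10.5 and 7.86, and the groups stayed apart. Tet2, which oxidises 5-methylcytosine, stood out by length: its 992 nt intron (chromosome 3, 133143306 to 133144297) was at 11.1% and 6.90% in control and at 50% and 44.7% in knockdown. The differences were 43.9 points for Map4k2, 42.0 for Plxna3, 38.4 for Ulk3 and 38.3 for Tet2, with standard errors from 4.77 to 7.30.

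The remaining 4 of the 12 introns were in Dpp7, Mfsd10, H2-Ke6 and Adck5. Dpp7, a vesicular dipeptidyl peptidase, had a 70 nt intron at 4.41% and 14.3% in control and at 48.8% and 58.6% in knockdown. Mfsd10, a transporter of the major facilitator superfamily, had a 77 nt intron at 3.37% and 9.64% in control and at 45.0% and 55.4% in knockdown. H2-Ke6, a mitochondrial 17-beta-hydroxysteroid dehydrogenase, had a 170 nt intron that was already retained at 31.2% and 36.7% in control and reached 76.7% and 77.1% in knockdown. Its knockdown libraries agreed within an SD of 0.28, and its difference of 43.0 points had an adjusted p of 0.00875 (limma). Adck5, of a family of atypical kinases, had a 101 nt intron at 9.09% and 15.5% in control and at 45.5% and 60% in knockdown. The introns of Adck5 and Cpsf1 lie near each other on chromosome 15, in genes on opposite strands.

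**Figure D1:**
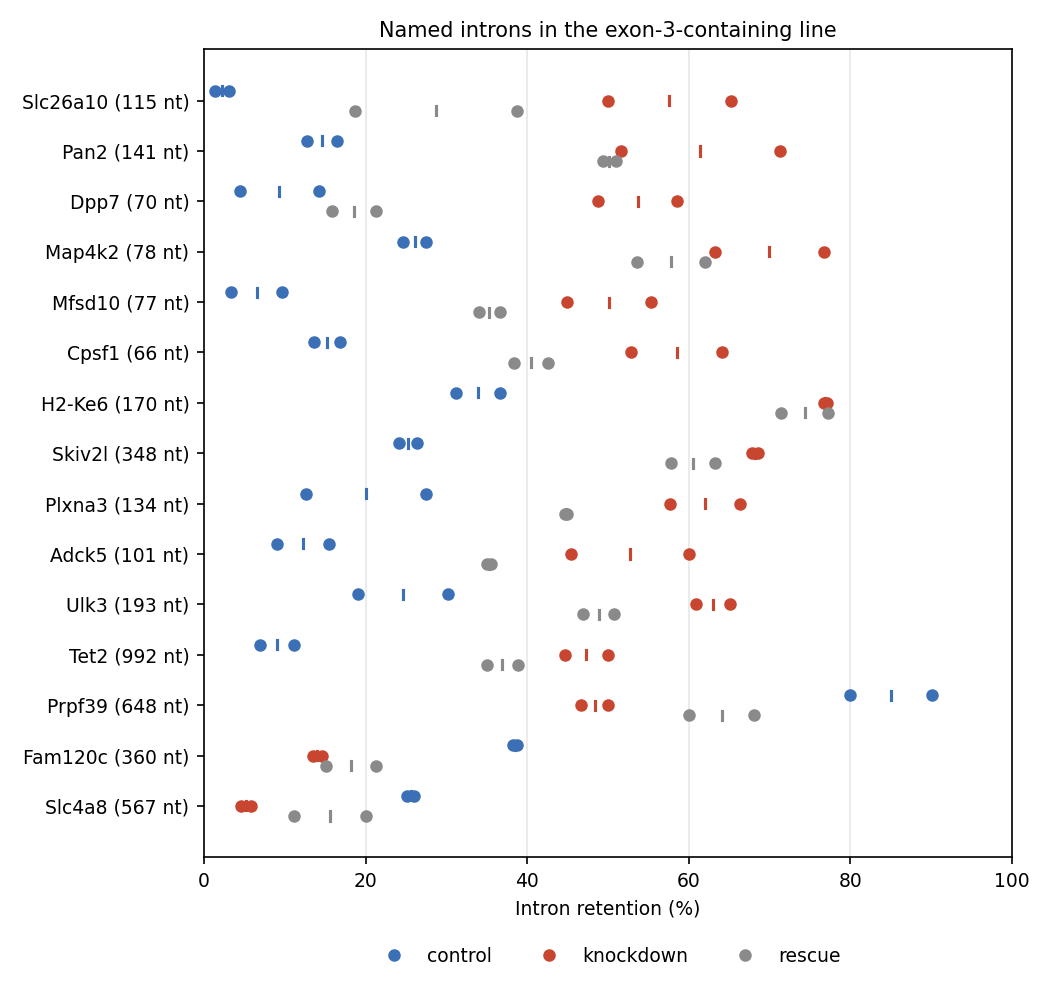
Intron retention in percent (x axis) in each library of the exon-3-containing line for the 12 named introns retained more and the 3 retained less, with intron lengths in nt; points are libraries and vertical ticks are means of 2. In every row the control and knockdown points are apart, and each rescue mean lies between the control and knockdown means. The rows were selected on the difference between control and knockdown.

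The sequences of retained introns with an annotated transcript that spans them are shown to make their size and their splice sites visible. They come from GENCODE M21 transcripts (GRCm38), matched to the tested introns by gene symbol and by the lengths of the intron and its flanking exons, since the files use mm9 and no position was converted. Of the 47 introns retained more, 46 matched, all between coding exons, and 19 had bases. Those shown are from the 9 of up to 200 nt with the largest differences, 5' to 3', and the capitals mark the first 6 bases (the 5' splice site) and the last 22 (a 20-base stretch and the terminal AG of the 3' splice site).
Mfsd10 (chr5:34634514-34634590, minus strand): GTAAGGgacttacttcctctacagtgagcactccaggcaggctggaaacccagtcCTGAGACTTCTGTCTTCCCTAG
Cpsf1 (chr15:76596350-76596415, minus strand): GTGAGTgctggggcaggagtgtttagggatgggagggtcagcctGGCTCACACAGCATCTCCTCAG
H2-Ke6 (chr17:34026226-34026395, minus strand): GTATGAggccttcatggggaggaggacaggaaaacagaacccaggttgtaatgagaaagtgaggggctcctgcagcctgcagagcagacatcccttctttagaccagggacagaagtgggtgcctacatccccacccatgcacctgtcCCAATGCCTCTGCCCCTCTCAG
Plxna3 (chrX:74335867-74336000, plus strand): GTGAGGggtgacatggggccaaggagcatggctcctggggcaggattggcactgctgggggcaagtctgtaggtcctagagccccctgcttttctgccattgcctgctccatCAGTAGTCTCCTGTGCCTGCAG
Adck5 (chr15:76594052-76594152, plus strand): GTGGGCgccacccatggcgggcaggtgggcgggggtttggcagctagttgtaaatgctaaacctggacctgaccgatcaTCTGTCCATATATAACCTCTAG
Ppp1r16a (chr15:76693139-76693226, plus strand): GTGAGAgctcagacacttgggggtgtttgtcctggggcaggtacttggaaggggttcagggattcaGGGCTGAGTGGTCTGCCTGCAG
Lime1 (chr2:181382545-181382615, plus strand): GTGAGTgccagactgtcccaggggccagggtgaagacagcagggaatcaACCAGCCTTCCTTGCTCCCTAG
Dus3l (chr17:56769663-56769735, plus strand): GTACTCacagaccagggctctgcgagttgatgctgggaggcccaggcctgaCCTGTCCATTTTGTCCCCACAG

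For contrast, 3 introns under 100 nt with a control retention of 2% to 20% were taken for having the smallest differences, all under 0.1 points. They are 82 to 98 nt long, within the range of 66 to 170 nt of those shown above. All also end in AG, and that of Ncaph2 starts with GC in place of GT.
Ncaph2 (chr15:89370309-89370394, plus strand): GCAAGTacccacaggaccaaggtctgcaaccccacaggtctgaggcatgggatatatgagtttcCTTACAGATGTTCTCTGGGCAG
Chchd5 (chr2:129130319-129130400, plus strand): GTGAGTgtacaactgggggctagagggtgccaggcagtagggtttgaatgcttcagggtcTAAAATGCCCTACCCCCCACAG
Cpne1 (chr2:156078234-156078331, minus strand): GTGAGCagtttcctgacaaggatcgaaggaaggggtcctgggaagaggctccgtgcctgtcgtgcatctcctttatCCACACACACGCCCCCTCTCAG

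The pyrimidine content of the 20 bases before the terminal AG was similar in introns called as retained more and in those not called. Among introns under 200 nt with bases, its median was 72.5% for the 14 retained more, with a range from 50% to 90%, and 75% for 1127 others. The intron of Ppp1r16a lies at the lowest of these values. The median GC content was 57.4% and 55.9%, and all 14 began with GT, as did 1118 of the 1127. The others are not introns without a change: of all tested introns under 80 nt that were not called, 92.5% were higher in knockdown. They were also longer, with a median of 101 nt against 80 nt for the 14. These are descriptions of the introns that have an annotated spanning transcript, and were not tested.

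The introns retained more were mostly short. Their median was 87 nt (quartiles 77 and 152.5 nt), and 28 of the 47 were under 100 nt. Of the 47, 80.9% were under 200 nt, against 23.6% of the other tested introns, whose median was 709 nt. Among introns under 80 nt, 16 of 576 were called (2.78%). The share was 0.868% from 80 to under 100 nt, 0.571% up to 150 nt, 0.341% up to 200 nt, 0.190% up to 500 nt, 0.072% up to 1000 nt and 0.014% from there on.

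The change was also graded by length over all tested introns. The filter on the mean percentage (2% to 98%) used all 12 libraries, so an intron low in control could pass through its knockdown values. Equally low introns that did not change were left out, which can raise the values below and the called shares by length. Introns under 80 nt had a median change of 5.50 points, from a median of 4.23% in control to 10.3% in knockdown, and 92.7% of them were higher. Introns of 1000 nt or more had a median change of 0.38 points, and 56.7% were higher. With the called introns left out, the medians were 5.31 points for 560 introns under 80 nt and 0.38 points for 7092 introns of 1000 nt or more. Library by library, the median retention of introns under 100 nt was 2.94% and 4.08% in control and 6.46% and 8.18% in knockdown, so the groups did not overlap. For introns of 1000 nt or more it was 3.17% and 4.35% in control and 3.26% and 5.00% in knockdown, so the groups overlapped. Replicate 2 was the higher library in both groups and in both length classes. Knockdown replicate 1 alone, against the mean of the controls, gave a median change of 4.49 points under 80 nt and of -0.58 at 1000 nt or more.

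**Figure D2:**
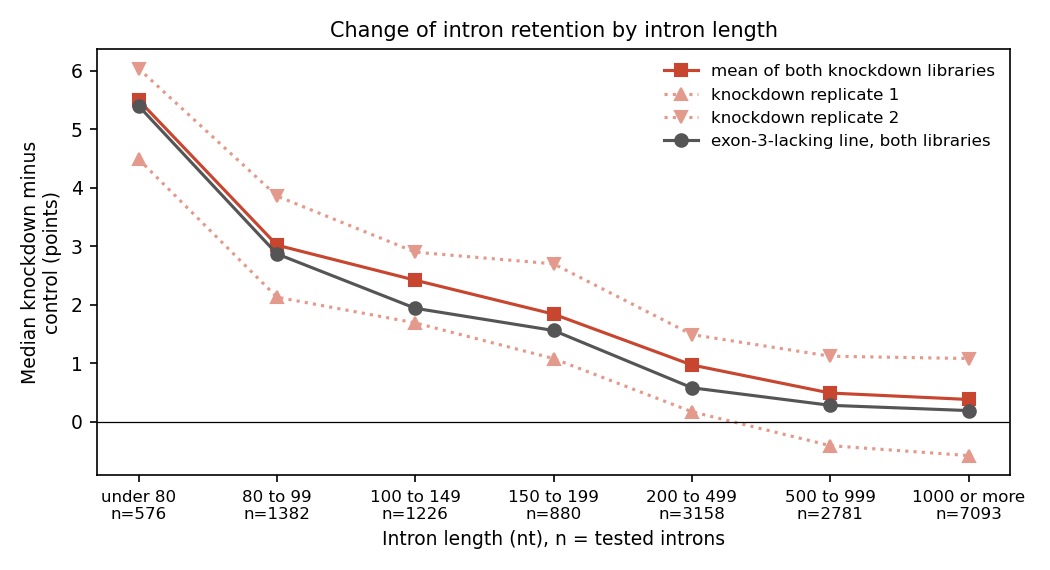
Median change of intron retention in points (y axis) by intron length class in nt (x axis, with the number of tested introns), for the exon-3-containing line as the mean of 2 knockdown libraries and for each against the control mean, and for the exon-3-lacking line. The median falls from 5.50 points under 80 nt to 0.38 points at 1000 nt or more, and knockdown replicate 2 lies above replicate 1 throughout.

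Most of the 47 introns were absent from most transcripts in control cells, though they were retained more than the typical tested intron. Their median control retention was 7.76%, against 3.45% and 4.62% in the 2 control libraries over all tested introns. Of the 47, 29 were under 10%. The range ran from 0.98% in Pkd1, the polycystin-1 gene, to 50.5% in Fibp. Of the 43 genes, 4 had 2 called introns: Map4k2 (78 and 86 nt, 43.9 and 35.4 points), the meiotic cohesin gene Rec8 (76 and 83 nt, 34.9 and 20.9 points), the phospholipase gene Plcg1 (273 and 78 nt, 29.2 and 18.9 points) and the ceramide synthase gene Lass4 (702 and 245 nt, 28.5 and 26.6 points). None had 3 or more. The 407 other tested introns of these 43 genes had a median change of 4.12 points, with 335 of them higher. Within those genes the 259 others under 200 nt had a median change of 5.16 points and the 148 of 200 nt or more had 2.39 points.

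The authors' own calls cover more introns. Of 2175 events in the authors' deposited table, 968 (44.5%) were called for this comparison. That table is named as a list of differential events, so 44.5% is not a share of all measured events. Its calling rule was not found. Among the 968 were 567 introns retained more in 364 genes and 53 retained less. Of the 968, 579 were among the events tested here. Those 567 introns had a median length of 127 nt and 45.0% were under 100 nt in the authors' deposited table. Dgat1, which makes triglycerides, and Plxna3 each had 9 such introns, the lipid transporter gene Abca7 had 8, and Cpsf1 and Dpp7 each had 7 in the authors' deposited table. In Dgat1 the changes ran from 17.9 to 43.4 points and in Cpsf1 from 15.4 to 45.6 points in the authors' deposited table. Of the 98 events called here, 91 were called under the same identifier in the authors' deposited table, which rests on the same libraries. The 7 alternative sites account for the rest, and whether they are listed there under other identifiers was not checked.

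The 3 introns retained less were longer and were retained in a sizeable share of control transcripts. Prpf39 encodes a U1 snRNP-associated protein. Its 648 nt intron (chromosome 12, 66144345 to 66144992) fell from 80.0% and 90.2% in control to 50.03% and 46.7% in knockdown, by 36.7 points (SE 5.38, adjusted p = 0.0270, limma). A 100 nt exon of Prpf39 also fell, from 61.4% and 55.3% to 27.8% and 33.1%. The 360 nt intron of Fam120c was at 38.7% and 38.2% in control and at 14.6% and 13.5% in knockdown. The 567 nt intron of Slc4a8, a sodium-driven bicarbonate transporter, was at 25.2% and 26.0% in control and at 5.88% and 4.55% in knockdown. In all 3 the groups lay well apart.

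Exons skipped after knockdown came from 34 genes and had mostly been included in control. Their median control inclusion was 84.8%, against 94.1% over all tested exons. The largest fall was in Slc9a5, a sodium/proton exchanger of neurons. Its 71 nt exon (chromosome 8, 107881481 to 107881551) was included at 75.9% and 71.6% in control and at 30.3% and 25.2% in knockdown, a difference of -46.0 points (SE 5.14, adjusted p = 0.0101, limma). The knockdown libraries were both below every control library by more than 40 points. Rpusd1, which has a pseudouridine synthase domain, had a 140 nt exon at 73.8% and 67.3% in control and at 28.8% and 31.0% in knockdown. Arhgap33, a GTPase-activating protein, had a 212 nt exon at 79.5% and 73.0% in control and at 33.2% and 41.9% in knockdown. Obsl1, a cytoskeletal adaptor, had a 115 nt exon at 79.0% and 65.9% in control and at 37.1% and 32.9% in knockdown.

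Of the next 4 skipped exons, that of Ccnl1 came first by size. Ccnl1 encodes cyclin L1, a partner of CDK11 that is linked to splicing. Its 73 nt exon was at 62.3% and 66.5% in control and at 27.2% and 27.8% in knockdown, a difference of -36.9 points (SE 4.25, adjusted p = 0.0101, limma). Numa1 encodes a protein that anchors spindle microtubules. Its 42 nt exon shared the smallest adjusted p of the called events with an exon of Ikbkb, at 84.5% and 84.3% in control and 53.3% and 53.2% in knockdown, a difference of -31.2 points (SE 2.90, adjusted p = 0.00541, limma). Mink1, a Ste20-type kinase, had a 111 nt exon at 83.0% and 82.1% in control and at 46.9% and 49.5% in knockdown. A 61 nt exon of Rcc2, a regulator of mitosis and Rac1, was at 47.4% and 37.4% in control and at 15.3% and 8.26% in knockdown.

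The exons of Numa1 and Slc9a5 are shown for the close replicates of the first and the size of the change in the second; both are coding in GENCODE M21 (GRCm38), the first a multiple of 3 in length and the second not.
Numa1 (chr7:102002295-102002336, plus strand): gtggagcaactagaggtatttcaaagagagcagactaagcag
Slc9a5 (chr8:105357581-105357651, plus strand): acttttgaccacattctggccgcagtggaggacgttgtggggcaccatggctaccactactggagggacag

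Smaller falls were seen in other genes, of which some are given as examples chosen after their values were seen. Inclusion fell by 30.4 points in Med25, a Mediator subunit, by 29.1 in Ikbkb, the kinase that activates NF-kB, by 26.4 in Ehmt2, the histone methyltransferase G9a, and by 17.0 in Cdk4. A 93 nt exon of Pycr1, a proline synthesis enzyme, was at 98.2% and 97.4% in control and at 85.5% and 78.0% in knockdown. Of the 34 exons, 14 (41.2%) had a length divisible by 3, against 43.4% of the 6738 tested. Their median length was 100.5 nt, against 108 nt of all tested exons. The 34 held 1 microexon (3 to 27 nt), in Gripap1, and the tested exons held 195.

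The 7 exons included more were led by a 21 nt microexon of Dctn4, a dynactin subunit. It was included at 26.5% and 36.6% in control and at 61.0% and 62.0% in knockdown, a difference of 29.9 points (SE 4.74, adjusted p = 0.0311, limma). Sh3glb2, an endophilin family member, had a 63 nt exon at 57.8% and 57.6% in control and at 87.5% and 82.4% in knockdown. Exons of Hmgxb4, an HMG-box protein, and Odf2l, a centriolar protein, differed by 22.6 and 22.3 points. Those of Ext2, Zcchc2 and Cdadc1 differed by 22.2, 19.1 and 19.02 points. Of the 7 exons, 5 had a length divisible by 3, against 43.4% of the 6738 tested, and with 7 exons this says little.

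**Figure D3:**
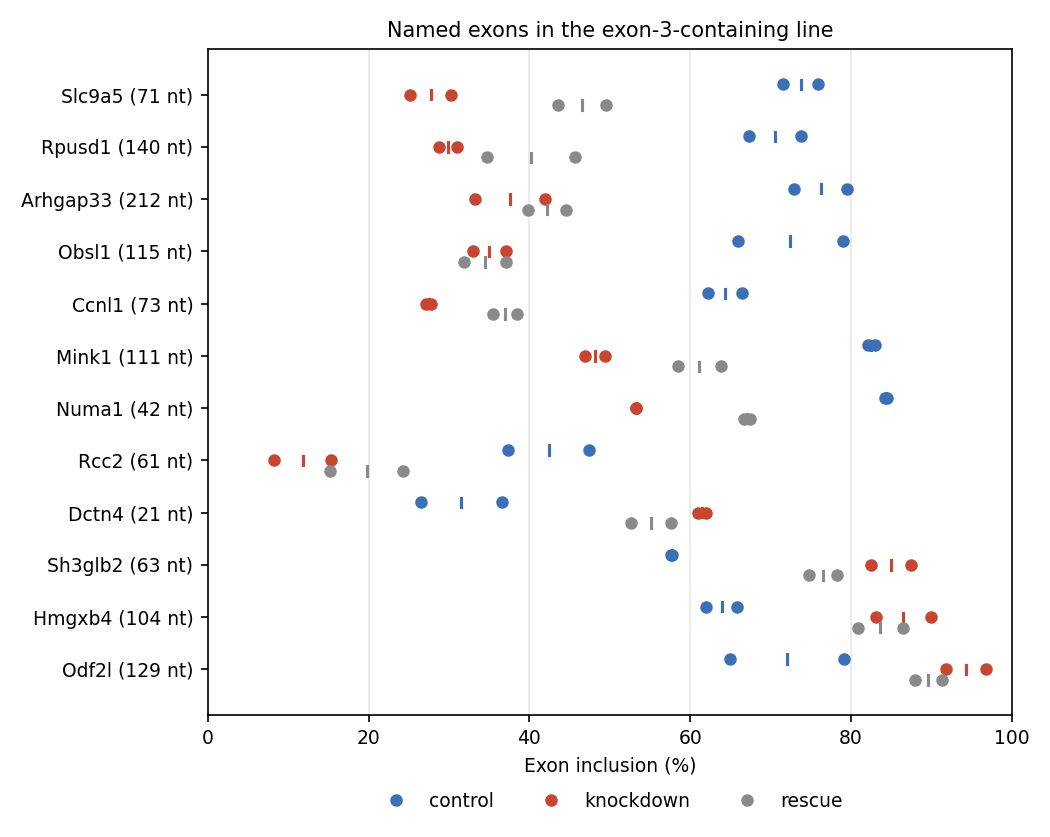
Exon inclusion in percent (x axis) in each library of the exon-3-containing line for the 8 named exons included less and the 4 included more, with exon lengths in nt; points are libraries and vertical ticks are means of 2. The Numa1 exon sits at 84.4% on average in control and 53.2% in knockdown with replicates nearly on top of each other.

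Alternative splice sites moved in both directions. In Fam160a2, which links vesicles to dynein adaptors, use of an alternative 5' site was 44.4% and 47.5% in control and 74.5% and 81.4% in knockdown, a difference of 31.9 points (SE 4.93, adjusted p = 0.0311, limma). In the antiviral gene Zc3hav1, a 5' site differed by -17.8 points. Among 3' sites, that of Hmbox1, a telomere-binding homeobox protein, was at 41.7% and 51.1% in control and at 15.2% and 18.8% in knockdown. A site in 0610007P22Rik was at 89.5% and 88.5% in control and at 67.2% and 60% in knockdown. In Tgfbr1, a receptor for TGF-beta, the site was at 38.4% and 47.3% in control and at 65.2% and 69.1% in knockdown. The changes of the 3 were -29.4, -25.4 and 24.3 points.

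The exon-3-lacking line shares no control or knockdown library with this comparison, and its values were set beside it. Its libraries did enter the shared spread and the filter behind the calls, which can favour events with close replicates there. The counts without overlap below are therefore not an independent test. Of the 47 introns retained more here, 46 were also higher in the exon-3-lacking line without overlap of its control and knockdown libraries, as were 27% of all tested introns. Of the 34 exons included less, all were lower there and 33 without overlap, as were 28.2% of all tested exons. The median change of the 47 introns was 29.6 points here and 20.5 points there, and that of the 34 exons was -24.1 and -14.2 points. The events were chosen on this line's values, so the smaller sizes there are not a test. The test of the difference between the lines called 0 of 28980 events (limma interaction, smallest adjusted p = 0.998), with 927 at an unadjusted p under 0.05.

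Some events were far apart in size between the lines, and none of these passed the adjusted test. The Ulk3 intron changed by 38.4 points here, and in the exon-3-lacking line it was at 35.6% on average in control and 39.8% in knockdown. The adjusted p of that difference between the lines was 1.00 (limma). The Fibp intron was the exception among the 47, with -4.79 points there. Of the 98 events, 2 were opposite in direction, Fibp and Hmbox1: the Hmbox1 site changed by 6.50 points in the exon-3-lacking line, from 27.5% to 34.0%. By contrast, the Ccnl1 exon changed by -41.2 points there, the Dctn4 microexon by 26.9 and the Pan2 intron by 41.3, close to the values here.

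**Figure D4:**
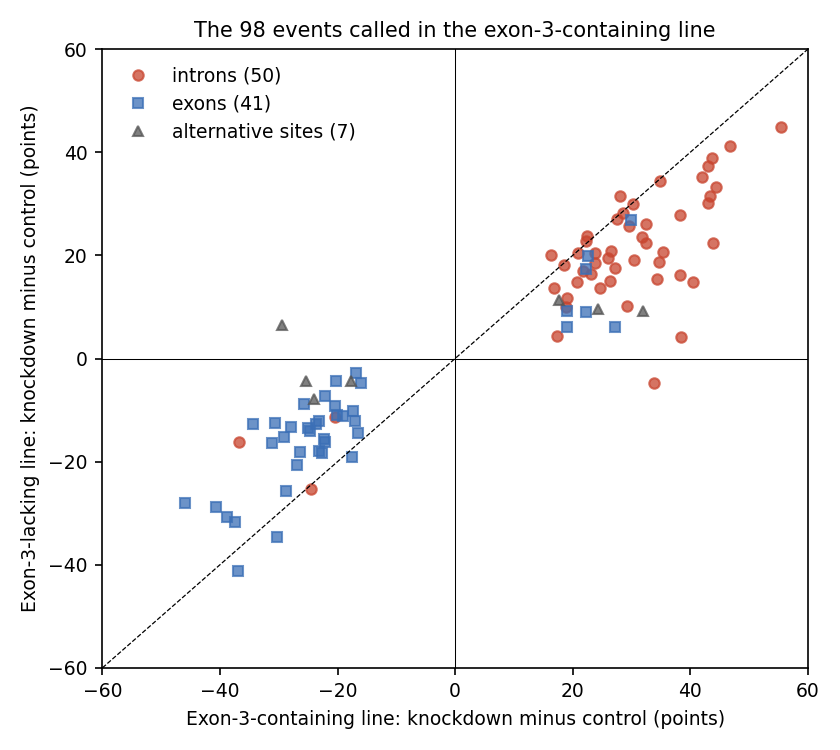
Change on knockdown in points for the 98 called events in the exon-3-containing line (x axis) and the exon-3-lacking line (y axis), with circles for introns, squares for exons and triangles for alternative sites; the dashed line marks equal change. All but 2 events share the direction, Fibp and Hmbox1 being the exceptions, and the events were selected on the x axis.

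In the rescue group of the same line, which shares the siRNA with the knockdown group, the named events took values mostly between knockdown and control. The named events were chosen for a wide gap between those groups, so values between them are not a test. The share over all tested events was not counted. The Slc26a10 intron was at 38.8% and 18.8% and the Dpp7 intron at 15.9% and 21.4%, against 48.8% and 58.6% in knockdown for Dpp7. The H2-Ke6 intron stayed at 71.4% and 77.3%, and the Obsl1 exon at 37.0% and 31.8%, within the range of knockdown or near it. The Numa1 exon was at 66.7% and 67.4%, between 53.2% in knockdown and 84.4% in control.

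Gene expression changed in the same cells for 793 of 21541 tested genes at an FDR under 0.05 in the authors' deposited table, 319 higher (1.48% of genes) and 474 lower (2.2%). Among genes past the FDR with at least 5 RPKM in control or knockdown, the 12 highest log2 ratios belonged to 8 named genes and 4 predicted genes. Cox6a2, the muscle-type subunit of cytochrome c oxidase, went from 6.32 to 80.9 RPKM (log2 ratio 3.66, FDR 1.27e-10 in the authors' deposited table). Lipa, the lysosomal acid lipase, went from 2.15 to 19.2 RPKM (log2 ratio 3.10, FDR 2.02e-15 in the authors' deposited table). Capn6, a calpain family member, was at 20.1 RPKM in control and 121.9 in knockdown, and the secreted carbonic anhydrase gene Car6 at 2.02 and 22.9, in the authors' deposited table. Taf7l, a relative of a TFIID subunit known from germ cells, was at 0.27 and 8.03 RPKM in the authors' deposited table. The other genes among the 12 highest were Ankrd1 (log2 ratio 3.39), S100a11 (3.37), Dach2 (2.78) and the predicted genes Gm14819, Gm6329, Gm48275 and Gm11688 (5.29, 4.02, 2.78 and 2.03). Log2 ratios are on the scale of RPKM plus 0.1, with 1 value per group and so no spread between replicates, and understate the change of low genes.

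The 12 lowest ratios, among genes past the FDR with at least 5 RPKM in control or knockdown, included surface proteins and a protease inhibitor. Procr, the endothelial protein C receptor, went from 69.1 to 12.6 RPKM (log2 ratio -2.45, FDR 0.000389 in the authors' deposited table). Ctla2a, a cysteine protease inhibitor, went from 274.3 to 75.5 RPKM (log2 ratio -1.86, FDR 4.26e-06 in the authors' deposited table). Itgb3, the integrin beta-3 chain, had a log2 ratio of -2.09. Gchfr, which regulates GTP cyclohydrolase, was at 129.5 and 34.96 RPKM in the authors' deposited table. Gpbar1, Ifitm10 and the potassium channel gene Kcnn3 had log2 ratios of -1.94, -1.89 and -1.78. The predicted genes Gm44955 and Gm14005 and the microRNA gene Mir6392 were also among the 12 lowest (-2.84, -2.50 and -3.89), and Gm42428 was listed at 7.92 RPKM in control and at 0 in knockdown. Short or predicted genes of this kind can share reads with overlapping genes.

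Among genes of the adrenergic neuroblastoma identity, 5 of 22 tested were higher and 0 lower by the authors' deposited table. Among all tested genes the shares were 1.48% and 2.2%. The list's median log2 ratio was 0.32, against 0.00 over all tested genes. Gap43, a growth cone protein, was at 36.0 RPKM in control and 128.0 in knockdown, and Phox2a, a regulator of noradrenergic fate, at 36.0 and 116.6 RPKM in the authors' deposited table. Hand2, a partner of the Phox2 factors, was at 82.6 and 155.5 RPKM, and Dbh, which makes noradrenaline, at 0.20 and 1.61 RPKM in the authors' deposited table. The fifth was Dcx, at 0.08 and 0.46 RPKM. The controls of the lines differed for these genes: in the exon-3-lacking line Gap43 was at 115.2 RPKM in control and Dbh at 8.99 RPKM, and knockdown gave Gap43 a log2 ratio of 0.18 there (FDR 0.995 in the authors' deposited table). Whether the knockdown effect on Gap43 differed between the lines was not tested.

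Axon guidance genes included 6 of 33 higher and 0 lower, with a list median of 0.12. Among all tested genes 1.48% were higher and 2.2% lower. Nrp1, a semaphorin and VEGF co-receptor, went from 6.55 to 20.01 RPKM (FDR 1.18e-07 in the authors' deposited table). Slit3, a ligand of Robo receptors, went from 3.84 to 11.8 RPKM, Sema6d from 4.49 to 8.50 and Plxna4 from 7.30 to 11.4 RPKM, all in the authors' deposited table. Robo1 was at 0.07 and 0.21 RPKM, and Robo2 was listed at 0 in control and at 0.86 RPKM in knockdown.

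Stress and immediate early genes went in both directions. The shares among all tested genes were 1.48% higher and 2.2% lower, so counts of 1 gene in these lists say little. In the list of the integrated stress response 3 of 31 were higher and 1 lower, with a median log2 ratio of 0.18: Ppp1r15a (GADD34), Sesn2 and Trib3 had 0.91, 0.86 and 0.69, and Pycr1 had -0.93. Among p53 targets 2 of 21 were higher and 0 lower, Gadd45a (1.64) and Sesn2, which is on both lists, with a median of -0.03. Among immediate early and NF-kB genes 1 of 32 was higher, Atf3 (1.92), and 3 were lower, Ier3 (-1.76), Phlda1 (-1.54) and Fosb (-1.34), with a median of -0.18. Of the mesenchymal list, 1 of 18 was higher, Snai2, and 1 lower, with a median of 0.02.

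Lysosomal and glycolytic genes had lower ratios as groups. Of 25 lysosomal genes 21 had a log2 ratio below 0, with a median of -0.42. Lower by the FDR in the authors' deposited table were 4, among them the cathepsin gene Ctsd (-0.81), the calcium channel gene Mcoln1 (-0.65) and the peptidase gene Tpp1 (-0.36), and 1 was higher, Lipa. Of 18 glycolytic genes 17 had a log2 ratio below 0, with a median of -0.41, and 3 were lower: the neuronal enolase gene Eno2 (139.1 to 46.5 RPKM), the aldolase gene Aldoc (6.68 to 2.62 RPKM) and the glucose transporter gene Slc2a1 (40.9 to 22.5 RPKM), all in the authors' deposited table. Of 14 cytochrome c oxidase subunits 1 passed, Cox6a2, and the list's median was -0.17. The share of all tested genes with a log2 ratio above 0 was 48.6%, and 1.48% were higher and 2.2% lower by the FDR.

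Genes of the spliceosome had ratios mostly above 0, with no single gene passing. Of 50 core spliceosome genes 45 had a log2 ratio above 0, with a median of 0.22, and 0 passed the FDR in either direction. Medians were 0.18 for 19 factors of the 3' splice site and short introns, 0.22 for 16 SR proteins, 0.22 for 26 hnRNP proteins and 0.21 for 19 cleavage and polyadenylation factors. Only Syncrip among the hnRNP proteins and Cstf3 among the cleavage factors passed in these lists, both higher (log2 ratios 0.66 and 0.59). Cyclin L2, encoded by Ccnl2, was lower (48.9 to 37.5 RPKM, FDR 0.0179 in the authors' deposited table).

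**Figure D5:**
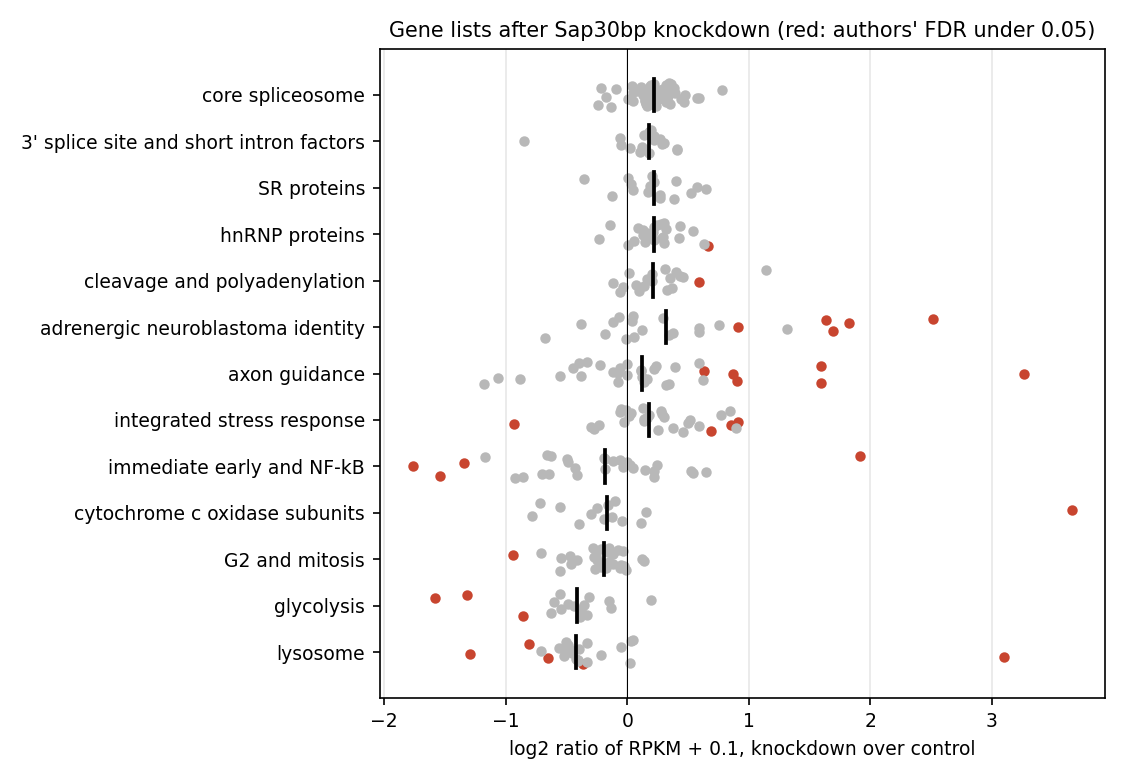
Log2 ratio of RPKM plus 0.1, knockdown over control (x axis), for each tested member of 13 gene lists (rows); black ticks are list medians and red points passed an FDR of 0.05 in the authors' deposited table. The lysosome and glycolysis rows lie mostly left of 0, with Lipa far to the right, and the core spliceosome row lies mostly right of 0 without a red point.

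Expression of the host genes was set beside these events. The 39 host genes of the 47 introns with an expression test had a median log2 ratio of 0.17, and 14 were below 0. Of these only Rec8 passed the FDR, and it was higher (log2 ratio 0.92, FDR 0.00678 in the authors' deposited table). Cpsf1 was listed at 42.6 RPKM in control and 94.2 in knockdown. Its log2 fold change in the authors' deposited table was 0.28 with an FDR of 0.616, so its measures disagree in size. Mfsd10 also differed, with a log2 ratio of 0.90 and a log2 fold change of 0.29 there, whereas Rec8 had 0.92 and 0.78. The median of 0.17 rests on RPKM ratios, and the authors' fold changes were not summarised for the 39 genes. Of the genes with introns retained less, Fam120c was higher (5.56 to 10.0 RPKM) and Slc4a8 lower (35.01 to 12.2 RPKM) in the authors' deposited table. The 32 host genes of the 34 skipped exons with an expression test had a median log2 ratio of 0.11, and 9 were below 0. Of these, 0 were higher and 2 lower by the FDR in the authors' deposited table. The 2 were Pycr1 and Miip, with log2 ratios of -0.93 and -0.49. Over the wider set of introns in the authors' deposited table, 320 host genes had an expression test, with a median log2 ratio of -0.03; 4 were higher and 19 lower (5.94%), beside 1.48% higher and 2.2% lower among all tested genes.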

How the data were processed

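The authors deposited an inclusion table (mm9) of percent values per event and library, and 1 RPKM value per gene and group with their log2 fold change, p-value and FDR. The authors' deposited splicing table gives changes in percent points and calls. Salmon 0.14.1 and edgeR are named per the submitters' processing notes; the coverage rule of the inclusion table was not found in these sources. Only events measured in each of the 12 libraries, with a mean from 2% to 98%, were tested. limma 3.58.1 (R 4.3.3) was fitted with 6 group means, trended and robust, with Benjamini-Hochberg adjustment, and tested on simulated data. Of 401633 entries, 37194 first sites were left out. RPKM ratios used a pseudocount of 0.1. Each FDR goes with the authors' log2 fold change, which can differ in size from these ratios. Named events were the largest called of each class, and named genes the 12 highest and lowest log2 ratios past the FDR with at least 5 RPKM, plus list members that passed. The comparison, lists and rules were chosen with earlier results of these data known. Some genes and 1 intron sequence that meet these rules are not reported here.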

Additional observations from a re-analysis of the deposited data

How the results depend on the processing

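Of the 34 named events, all lost their call when either control library of the line was left out or when the spread came from the line's own 6 or 4 libraries, and 30 lost it with no filter on the mean percentage. The count of 98 events (47 introns retained more, 34 exons included less) was 56 (with 9 exons) on the logit scale and 11 (6 and 4) with no filter on the mean percentage. It was 0 (0 and 0) with only the line's 6 libraries or only the 4 compared. With a replicate block it was 258 (154 and 71); replicate numbers give only 2 pairs, whose deviations correlated at 0.206, and the labels state no shared batch. Leaving out 1 library of the series gave 0 to 144 events, 0 to 82 introns and 0 to 47 exons. The introns were 69 without trend or robust fitting. Requiring values in the 4 compared libraries only, added after the data were seen, gave 103. Events that differ between the lines numbered 2 with no mean filter, and 0 to 1 with 1 library left out. Genes numbered 793 at an FDR of 0.05, 456 at 0.01 and 524 with a log2 ratio of at least 1. Read depth is unknown, so no counting interval limits any single value.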

Other observations

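Other lists had few or no genes past the FDR. By the authors' deposited table, 0 of 40 DNA replication genes passed (median log2 ratio 0.02), 0 of 24 sterol synthesis genes (0.10), 0 of 18 SIN3 and HDAC complex genes (0.04), 0 of 24 nonsense-mediated decay and exon junction genes (0.18) and 0 of 20 neuronal and tissue splicing regulators (0.16). Of 30 genes of G2 and mitosis 28 had a log2 ratio below 0, with a median of -0.19, and 1 passed, the phosphatase gene Cdc25b (51.2 to 26.6 RPKM in the authors' deposited table). Of 13 cyclin L, CDK11 and CLK genes 8 were above 0, with a median of 0.07.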
